A study of Mus musculus with 6 samples.

Results

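RNA was sequenced from peritoneal macrophages (PEMs) of mice with floxed Tim-4 alleles and a Cre driver (LysM-Cre; Tim-4 fl/fl, knockout) and of mice with the floxed alleles alone (Tim-4 fl/fl, control), and the nuclear genes that encode subunits of the mitochondrial respiratory chain are described here. The members were chosen by name: every gene called Ndufa, Ndufb, Ndufc, Ndufs, Ndufv, Sdha to Sdhd, Uqcr, Cox4 to Cox8 or Atp5, without pseudogenes, which took 92 of the 15415 genes listed. They comprised 40 genes of complex I, 4 of complex II, 8 of complex III, 15 of complex IV (Ndufa4 among them) and 17 of complex V. The remaining 8 are the Ndufaf genes, which the rule takes by name but which encode assembly factors of complex I rather than subunits, and they were kept apart.

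Tim-4, encoded by Timd4, is a phosphatidylserine receptor of macrophages. In the 3 knockout libraries the floxed Tim-4 alleles met Cre recombinase expressed from the Lyz2 locus in myeloid cells, and the 3 control libraries came from mice with the floxed alleles and no Cre. The mice of the study were male C57BL/6J mice of 6 to 8 weeks, and PEMs were drawn from the peritoneum 3 days after 1 ml of a 6% starch solution. All 6 libraries carry an LPS treatment label. The study describes 1 μg/ml LPS for 3.5 hours as activation, without saying whether the sequenced cells received it. Libraries were grouped by their titles, since titles and genotype entries contradict each other, the entries giving each group the genotype of the other. The study speaks of biological replicates for the error bars of its figures, but no source used here says for these 3 libraries of a group that they came from separate mice, so p-values measure the spread between these libraries, which may be technical.

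The recovered reads numbered 36170767 to 42217558 per library. Timd4 stood at 0.333, 0.394 and 0.246 FPKM (read level scaled by gene length and by the counted reads of the library) in knockout libraries 1, 2 and 3 and at 19.5, 12.0 and 1.19 FPKM in control libraries 1, 2 and 3. No knockout library reached the lowest control library, yet control library 3 was far below the other two (adjusted p = 0.0715 by limma). Lyz2, the locus that carries the Cre insertion, gave 41.4, 4656 and 106 FPKM in knockout and 7090.2, 7171 and 8482 FPKM in control libraries, with knockout library 2 apart from the other two. Adgre1, which encodes the macrophage antigen F4/80, was present throughout at 235 to 364 FPKM. Of the 7 macrophage markers tested, 1 passed the test as higher in the knockout (Fcgr1) and none as lower. Yet in 2 of the 7, Lyz2 and Csf1r, all knockout libraries lay below all controls. Their log2 fold changes were -4.77 and -0.71 (limma adjusted p = 0.103 and 0.0903). In 2 of the 7, Fcgr1 and Cd68, all knockout libraries lay above all controls. The markers that passed as lower were 5 of 5 of B cells, 5 of 5 of mast cells and 2 of 3 of neutrophils. The single tested T cell marker and the 3 of mesothelial cells and fibroblasts did not pass the test. No eosinophil marker was abundant enough to be tested. In bulk RNA, fewer cells of a type and less RNA per cell cannot be told apart.

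The respiratory chain passes electrons from NADH (complex I) and succinate (complex II) through ubiquinone, complex III and cytochrome c to oxygen at complex IV, and the protons pumped on the way drive ATP synthesis by complex V. Most subunits are encoded in the nucleus and imported, while a small set is made inside mitochondria from mtDNA, so that each complex other than complex II depends on both genomes. In macrophages, inflammatory activation is known for a shift from respiration towards glycolysis, and complex I and II are known as sources of reactive oxygen species.

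The subunits were abundant transcripts. Across the 88 members with a mean of at least 1 FPKM in one group, which were the members tested, the median level was 50.3 FPKM, against 7.43 FPKM over all 9030 tested genes. Together the 92 members took 0.52% to 0.592% of the reads of a library. Their summed level was 5687, 5674 and 6445 FPKM in knockout libraries 1, 2 and 3 and 6063, 5771 and 6024 FPKM in control libraries. The control sums lay inside the range of the knockout sums, and knockout library 3 was the highest of the 6. The members are also short, with a median length of 820.1 bp against 3394 bp for all tested genes.

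Levels per length differed between the complexes. The median level of the tested members was 113 FPKM for complex IV, 98.4 FPKM for complex V, 63.7 FPKM for complex III, 54.6 FPKM for complex II and 33.8 FPKM for complex I. The assembly factors were far lower, at a median of 2.96 FPKM. The highest member was Atp5b, the catalytic beta subunit of the ATP synthase head, with a mean over the 6 libraries of 359.7 FPKM. The next were Cox6b1 at 337 FPKM and Cox4i1 at 330.2 FPKM, a small and a large accessory subunit of complex IV. The 4 subunits of complex II spanned a narrow range, from 50.8 FPKM for the membrane anchor Sdhd to 61.8 FPKM for the other anchor, Sdhc. Complex I ranged over the tested genes from 1.10 FPKM for Ndufb4b, a copy of Ndufb4, to 126 FPKM for the accessory subunit Ndufa3. Several subunits have near-identical copies (Ndufb4, Ndufb4b and Ndufb4c, or Ndufs6 and Ndufs6b) and many have processed pseudogenes, and how reads were shared among them is not given in the sources used here, so their absolute levels are uncertain.

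**Figure D1:**
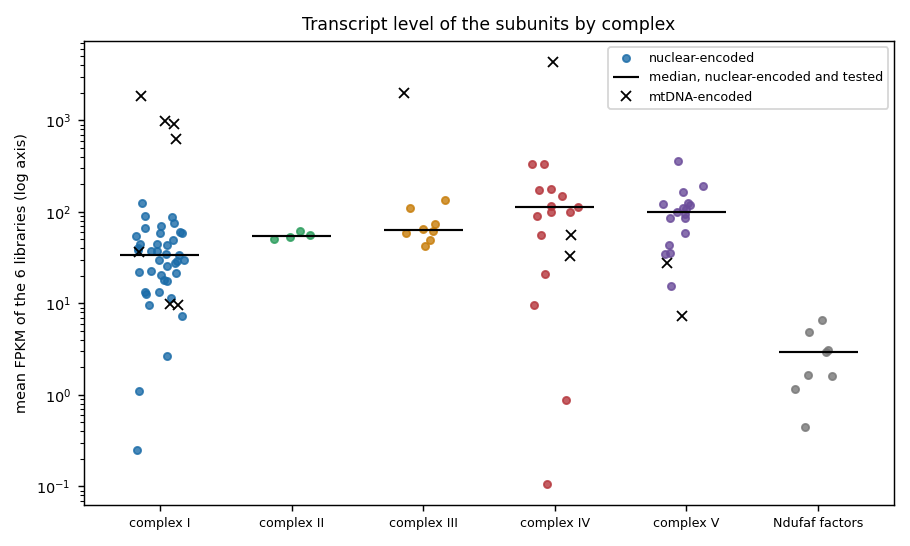
Mean FPKM over the 6 libraries (log axis) of each nuclear-encoded member (coloured points) and of the mtDNA-encoded subunits (crosses), by complex, with a line at the median of the tested nuclear-encoded members. Complex IV and V members stand highest, at medians of 113 and 98.4 FPKM, the Ndufaf factors lowest, and the mtDNA-encoded subunits spread from 7.32 to 4358 FPKM.

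The promoters of these genes carry known control elements for respiratory genes. Nuclear respiratory factor 1 (NRF1), ETS factors such as GABP (also called NRF2) and YY1 are factors known to act at promoters of this family. RefSeq promoters (GRCm38.p6, 250 bases before to 50 after the start site) were found for 76 of the 92 members, with 81 promoters in all, and were searched on both strands. The NRF1 core CGCATGCG, which reads the same on both strands, was in 11 of the 81 promoters (13.6%) and in 1.87% of all 32851 promoters. The ETS core CCGGAAG was in 19 (23.5%, against 8.86% of all) and the YY1 core AAGATGGC in 11 (13.6%, against 2.75%). The TATA motif TATAAA was in 7 (8.64%, against 13.6%). These are matches of letters, not shown to be bound sites, and genes can carry more than one of the motifs.

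The NRF1 matches whose 30-base window ends before the start site are shown, since this motif had the largest ratio of its share in member promoters to its share in all promoters among the 4 searched, while in percentage points the ETS core differed more. Each line gives 30 bases 5′ to 3′ on the strand of the gene, with the match in capitals. The windows are at chr17:56717692-56717721 (Ndufa11, complex I, plus strand), chr5:115349101-115349130 (Cox6a1, complex IV, minus strand), chr5:108434430-108434459 (Atp5k, complex V, minus strand), chr15:102671070-102671099 (Atp5g2, the c ring of complex V, minus strand), chr9:44920963-44920992 (Atp5l, complex V, minus strand), chr16:84835105-84835134 (Atp5j, the stalk of complex V, minus strand) and chr4:24897960-24897989 (Ndufaf4, assembly factor, plus strand), all in GRCm38.p6.
Ndufa11: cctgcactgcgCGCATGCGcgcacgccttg
Cox6a1: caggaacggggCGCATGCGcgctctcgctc
Atp5k: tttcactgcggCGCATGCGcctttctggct
Atp5g2: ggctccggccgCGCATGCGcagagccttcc
Atp5l: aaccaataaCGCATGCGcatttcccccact
Atp5j: aggccagaataCGCATGCGtacagtgcagt
Ndufaf4: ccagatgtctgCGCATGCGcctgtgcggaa
The matches end 52, 154, 42, 34, 234, 140 and 105 bases before the start site, in that order. The flanking bases differ from gene to gene. The windows of the other 4 matches (Ndufa8, Ndufaf5, Uqcr11 and Uqcrc1) reach past the start site and are not shown.

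Transcripts of most nuclear-encoded members stood close to the control level in the knockout libraries. Of the 88 members tested, none passed an adjusted p of 0.05 in either direction by limma, whereas 7.31% of all tested genes did (2.57% higher and 4.74% lower in the knockout). That share of all genes rests on single libraries: of the controls, dropping library 2 took the 660 genes behind it to 8 and dropping library 3 to 1333. Dropping knockout library 1 gave 30 genes, and dropping knockout library 2 gave 63. Its split of 232 higher and 428 lower rests on the scale, since values rescaled by the median of ratios gave 342 higher and 320 lower. At an unadjusted p under 0.05 there were 3 members, against 27.6% of all tested genes. That count was 7 after rescaling, 6 with the GC trend removed and 5 with limma voom on the recovered reads, and none of these members passed the adjusted threshold there. The knockout and control libraries did not overlap in 11 members (4 higher and 7 lower in the knockout), against 34.1% of all tested genes (11.1% higher and 23.0% lower).

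The size of the differences was small. The median absolute log2 fold change was 0.11 over the members and 0.24 over all tested genes, and 76 of the 88 members (86.4%) lay within 0.25 of 0, against 50.9% of all genes. Without a filter on low values, which adds genes of low level, the medians were 0.12 and 0.14. For 66 members (75.0%) the 95% interval of the difference stayed inside 1.5-fold either way, which held for 40.8% of all genes; without the filter the shares were 76.1% and 61.5%. The intervals are those of single genes, not adjusted for the number of genes. For the other 22 members a difference beyond 1.5-fold lies inside the interval. The count moved with the libraries used. It was 43 of 89 members (48.3%) without knockout library 2, against 26.7% of all genes. It was 47 of 88 (53.4%) without knockout library 1 and 51 (58.0%) without control library 1, and it was highest, at 78, without control library 2. With all libraries kept, rescaling by the median of ratios gave 58 of 89 (65.2%), against 48.2% of all genes. Voom on the recovered reads gave 53 of 88 (60.2%), against 33.5%, and removal of the GC trend gave 71 of 86 (82.6%), against 52.8%. The members' libraries also varied less within a group, with a median SD of 0.16 on the log2 scale against 0.20 over all genes.

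The direction of these small differences depended on the scale. On the deposited scale 38 members had a positive and 50 a negative log2 fold change, with a median of -0.026. The median of all tested genes was itself -0.11, and 63 of the 88 members lay above it. Relative to all genes the members' median therefore stood 0.085 higher on the log2 scale, a difference given without a test. It was 0.011 without a filter on low values (49 of 92 members above the median of all genes), 0.043 without control library 3 (49 of 88) and 0.16 without control library 1 (65 of 88). Where each library was rescaled by its median ratio to the geometric mean over libraries, all genes had a median of 0.016 and the members one of 0.11, and 68 of 89 members were positive. Single members moved with it: on the rescaled values Uqcrfs1 was at -0.26, Ndufc1 at -0.26, Ndufv1 at -0.10, Atp5mpl at -0.13, Atp5b at -0.071, Atp5j at -0.049 and Uqcrb at -0.011, while Ndufb10 was at 0.45, Ndufs8 at 0.44, Uqcr11 at 0.42, Cox6b1 at 0.34 and Atp5l at 0.32, and none passed the test.

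**Figure D2:**
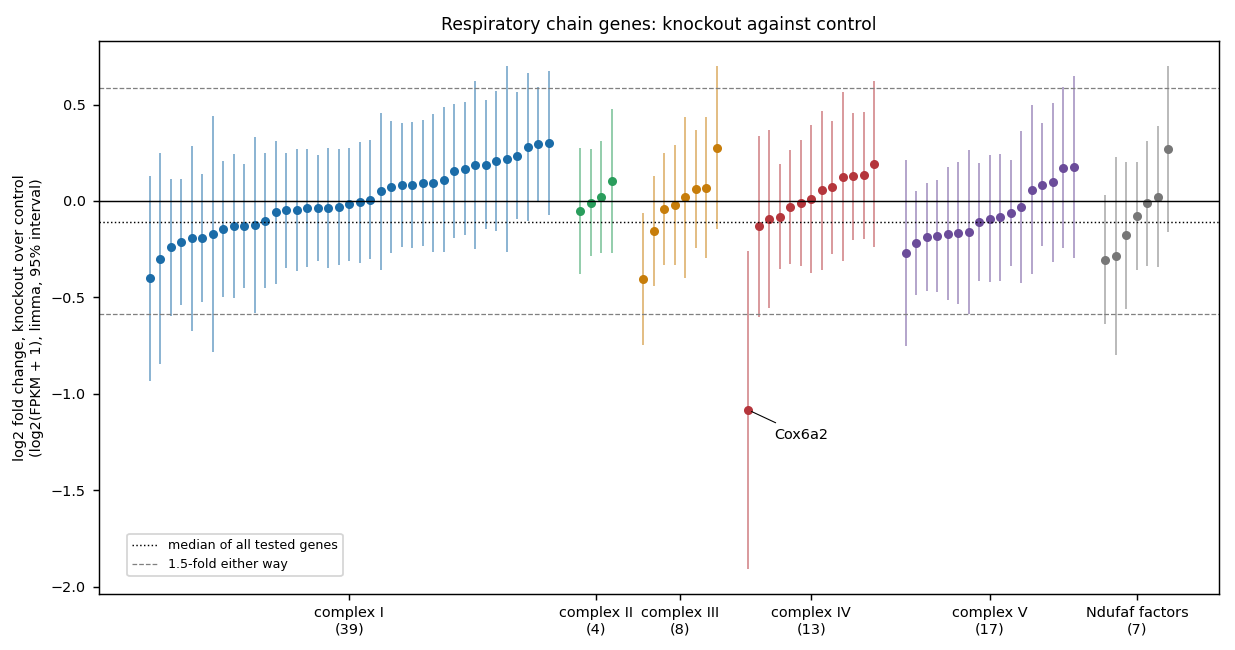
Log2 fold change of each of the 88 tested members (points; knockout over control on the log2(FPKM + 1) scale) with its 95% interval from limma (lines), sorted within each complex. Points gather around 0 and the median of all tested genes (dotted), 66 intervals stay inside 1.5-fold either way (dashed), and Cox6a2 alone lies beyond it, at -1.08.

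Complex I takes electrons from NADH into its flavin subunit Ndufv1 and along iron-sulfur clusters held by core subunits such as Ndufs1. Of its 39 tested genes, 18 had a positive and 21 a negative log2 fold change (median -0.018). The intervals of 29 stayed inside 1.5-fold. Ndufv1 was at 21.4, 21.0 and 28.3 FPKM in knockout and 25.7, 29.2 and 28.5 FPKM in control libraries (log2 fold change -0.24, SE 0.15, limma adjusted p = 0.339). Knockout library 3 fell among the controls. Ndufs1 was at 11.6, 12.8 and 13.8 FPKM in knockout and 12.9, 15.9 and 13.3 FPKM in control libraries, with overlapping groups and an interval from -0.45 to 0.19 on the log2 scale.

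The 7 core subunits, which carry the redox centres, had a median of -0.0081 and the 32 accessory subunits, which surround the core, a median of -0.033. The complex I member with the largest positive value was the accessory subunit Ndufb10, at 61.3, 64.1 and 73.6 FPKM against 59.7, 44.0 and 58.2 FPKM (log2 fold change 0.30, SE 0.16, limma adjusted p = 0.264). All 3 knockout libraries were above all 3 controls, by under 2 FPKM between the nearest of them, and control library 2 was the lowest. At the other end Ndufc1 was at 15.6, 12.4 and 16.1 FPKM against 16.8, 27.8 and 16.0 FPKM, with a log2 fold change of -0.40 (interval from -0.93 to 0.13). Here control library 2 was the highest of the 6 and control libraries 1 and 3 lay close to knockout library 3. Without control library 2 the log2 fold change of Ndufc1 was -0.16 and that of Ndufb10 0.16. Ndufv1, in turn, was at -0.37 without knockout library 3. The most abundant complex I member, Ndufa3, was at 135 ± 14.8 FPKM in the knockout and 117 ± 16.3 FPKM in control libraries (SD, n = 3 each).

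Besides Ndufb10, the groups of complex I did not overlap for Ndufa1, Ndufb7 and Ndufs8, named here after their values were seen, all with the knockout higher. These were 4 of the 39 tested genes of the complex, against 11.1% of all tested genes higher without overlap. Ndufs8, an iron-sulfur core subunit, was at 39.0, 41.7 and 42.6 FPKM against 35.2, 29.7 and 35.2 FPKM. Its log2 fold change was 0.30 (SE 0.13), the unadjusted p was 0.0489, and the limma adjusted p was 0.179. In all 4 of these genes control library 2 was the lowest of the 6 libraries.

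The Ndufaf assembly factors put complex I together and are not part of the finished enzyme. Of the 7 tested, 2 had a positive and 5 a negative log2 fold change (median -0.077), and 4 intervals stayed inside 1.5-fold. Ndufaf6 was listed under 1 FPKM in every library and was not tested. Of these factors only Ndufaf1 had groups that did not overlap, at 2.36, 2.16 and 3.13 FPKM in knockout and 3.35, 3.57 and 3.16 FPKM in control libraries (adjusted p = 0.213 by limma), and the distance between knockout library 3 and control library 3 was small.

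Complex II, succinate dehydrogenase, links the citric acid cycle to the chain and has no subunit from mtDNA. All 4 of its genes had intervals inside 1.5-fold, and their median log2 fold change was 0.0053. Sdha, the flavoprotein that oxidises succinate, was at 55.4, 53.1 and 61.1 FPKM in knockout and 59.3, 51.9 and 56.0 FPKM in control libraries, a log2 fold change of 0.020 (interval from -0.27 to 0.31). The groups overlapped. Sdhb, the iron-sulfur subunit, was at 50.9, 45.8 and 60.1 FPKM against 51.2, 53.9 and 56.6 FPKM (interval from -0.38 to 0.28). The anchor Sdhc was at 59.0, 58.8 and 67.1 FPKM against 61.9, 62.8 and 61.0 FPKM, which is a log2 fold change of -0.0091. For the second anchor, Sdhd, knockout library 3 (60.8 FPKM) was the highest and control library 2 (41.9 FPKM) the lowest, and the interval ran from -0.27 to 0.48.

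Complex III passes electrons from ubiquinol to cytochrome c through cytochrome b, cytochrome c1 and the Rieske iron-sulfur protein Uqcrfs1. Of its 8 genes 4 were positive and 4 negative, with a median of -0.0014 and 6 intervals inside 1.5-fold. Uqcrfs1 stood out from the others, at 41.2, 39.6 and 47.5 FPKM in knockout and 51.0, 65.4 and 54.6 FPKM in control libraries. The highest knockout library lay under the lowest control. The log2 fold change was -0.40 (SE 0.15, interval from -0.74 to -0.062), with an unadjusted p of 0.0266 and an adjusted p of 0.130 by limma, so the difference did not pass the test over all genes. On the rescaled values the log2 fold change of Uqcrfs1 was -0.26, with an unadjusted p of 0.0961 by limma.

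The other complex III subunits lay closer to 0. The core protein Uqcrc1 was at 61.2 ± 4.63 FPKM in the knockout and 62.3 ± 6.08 FPKM in control libraries (SD, n = 3 each), a log2 fold change of -0.022. Uqcrb, the most abundant of the complex, was at 121, 129.6 and 132 FPKM against 141, 154 and 133 FPKM, and its nearest knockout and control libraries lay under 1 FPKM apart (log2 fold change -0.16, SE 0.12, limma adjusted p = 0.433). The small subunit Uqcr11 had the largest positive value, 0.28, from 52.9, 66.9 and 71.4 FPKM against 53.3, 43.1 and 61.4 FPKM, with overlapping groups. Without control library 2 the value of Uqcr11 was 0.14 and that of Uqcrb -0.10.

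Complex IV, cytochrome c oxidase, reduces oxygen at metal centres in subunits from mtDNA, around which the nuclear-encoded subunits are arranged. Of 13 tested members 7 were positive and 6 negative, around a median of 0.010, and 10 intervals stayed inside 1.5-fold. Cox4i1, the ubiquitous isoform of subunit 4, was at 350.4, 308 and 355 FPKM in knockout and 341, 273 and 354 FPKM in control libraries (interval from -0.27 to 0.42). Cox5a was at 19.6, 19.9 and 22.2 FPKM against 20.4, 23.2 and 19.7 FPKM, a log2 fold change of -0.032. In both genes the groups overlapped. Cox6b1 had the largest positive value of the complex at 0.19 (SE 0.18), from 332, 356 and 381 FPKM against 360.0, 239 and 352 FPKM, and control library 2 was the lowest of the 6. Without that library the log2 fold change of Cox6b1 was 0.0007.

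The largest difference of any tested member was in Cox6a2, the heart and skeletal muscle isoform of subunit 6a. It was at 4.58, 5.64 and 6.08 FPKM in knockout libraries 1, 2 and 3 and at 22.2, 12.3 and 7.13 FPKM in control libraries 1, 2 and 3. The knockout libraries lay close together and all below the controls, while the controls lay far apart from each other. The log2 fold change was -1.08 (SE 0.35, interval from -1.91 to -0.26), and the limma adjusted p was 0.103, short of the threshold. Over the alternatives the adjusted p ran from 0.0123 to 0.289, and only without control library 3 did it pass, at 0.0123, with a log2 fold change of -1.45. Without control library 1, the highest, the log2 fold change was -0.70, at an adjusted p of 0.0987 by limma.

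Cox6a1, the isoform of other tissues, was at 195, 167 and 189 FPKM in knockout and 167, 148 and 189 FPKM in control libraries (log2 fold change 0.13, SE 0.14, limma adjusted p = 0.573). Its mean was 12.1 times that of Cox6a2 in the controls and 33.8 times in the knockout, so Cox6a2 was the minor isoform in both groups. The order of the controls in Cox6a2 was also that of Timd4, given above, and of the B cell gene Cd79a, which was at 2.83, 1.54 and 2.63 FPKM in knockout and 57.6, 33.7 and 15.3 FPKM in control libraries. The summed FPKM of the 5 B cell markers was 2.78 to 5.52 in the knockout libraries and 115, 78.9 and 27.5 in control libraries 1, 2 and 3. That of the 6 mast cell markers was 1.89 to 2.27 in the knockout and 38.2, 39.0 and 49.3 in the control libraries, in another order. No B cell marker was at 0 in any library, and of the mast cell markers Fcer1a was at 0 in knockout libraries 1 and 3. The part of these cells in the Cox6a2 difference was not tested.

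**Figure D3:**
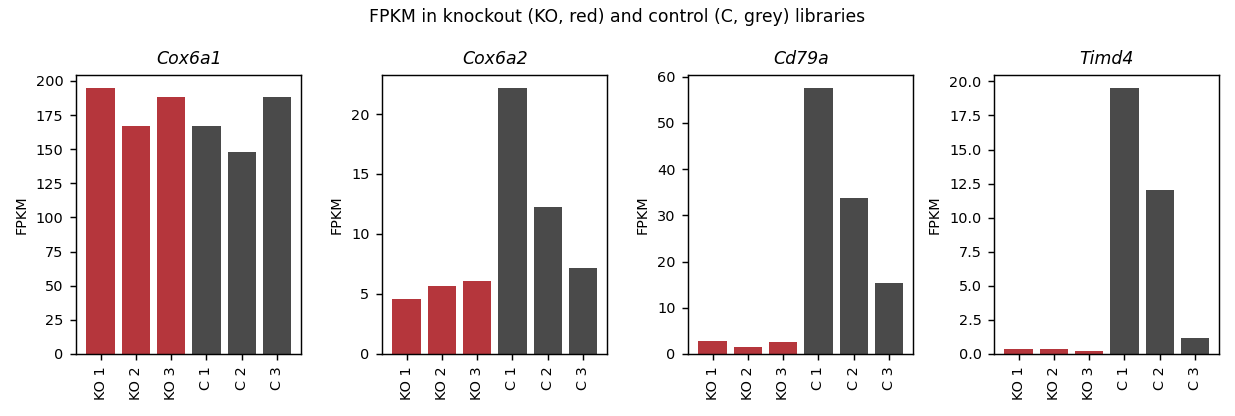
FPKM per library (bars; axes start at 0 and differ between panels) of Cox6a1, Cox6a2, the B cell gene Cd79a and Timd4 in the 3 knockout (red) and 3 control (grey) libraries. Cox6a1 overlaps between the groups, while in Cox6a2, Cd79a and Timd4 every control library exceeds the knockout libraries, with control library 1 highest and control library 3 lowest.

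Other isoforms of restricted tissues were at the edge of detection. Cox7a1, the muscle isoform of subunit 7a, was at 0.983, 0.824 and 1.17 FPKM in knockout and 0.661, 0.223 and 1.38 FPKM in control libraries. Cox6b2, a testis isoform, did not pass 0.236 FPKM in any library. With Ndufb4c and Ndufaf6 they make up the 4 members below the limit for testing. Cox4i2, Cox8b, Ndufa4l2 and Uqcrhl, which the naming rule would take, were not among the 15415 genes listed under these names.

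Complex V makes ATP in its F1 head, which holds Atp5a1 and Atp5b, driven by a ring in the membrane. It was the complex with the lowest median log2 fold change, -0.091 over 17 genes, which is 0.020 above the median of all tested genes. Of the 17, 5 were positive and 12 negative, and 13 intervals stayed inside 1.5-fold. The medians of the 5 head subunits (-0.091) and of the 12 subunits of stalk and membrane part (-0.097) lay close together. On the rescaled values the median of the complex was 0.053, so its sign on the deposited scale is not a fixed direction.

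Atp5b was at 334, 315 and 349 FPKM in knockout and 397, 391 and 372 FPKM in control libraries. The groups did not overlap, and the limma adjusted p was 0.263 for a log2 fold change of -0.22 (SE 0.12). On the rescaled values Atp5b was at -0.071. Its partner Atp5a1, the alpha subunit of the head, was at 186 ± 7.76 FPKM in the knockout and 194 ± 11.9 FPKM in control libraries (SD, n = 3 each), with overlapping groups and an interval from -0.34 to 0.21. The groups of Atp5h and Atp5j, stalk subunits named after their values were seen, did not overlap either. Their log2 fold changes were -0.18 and -0.19, with limma adjusted p of 0.367 and 0.343, and Atp5j was at -0.049 on the rescaled values. With Atp5b, 3 of the 17 genes of the complex were lower in the knockout without overlap, against 23.0% of all tested genes. The extremes of the complex were small membrane subunits: Atp5l at 159.9, 159 and 203 FPKM against 176, 116 and 175 FPKM (0.18) and Atp5mpl at 41.9, 33.1 and 42.0 FPKM against 38.9, 62.8 and 42.2 FPKM (-0.27). In both, control library 2 was farthest from the other 5, as the lowest for Atp5l and the highest for Atp5mpl. Without it the log2 fold change was -0.022 for Atp5l and -0.063 for Atp5mpl.

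The same library recurred across the members. Control library 2 was the farthest of the 6 from their mean in 45 of the 88 members, while over all tested genes it was the farthest in 21.5%. The SD of its deviations over the members was 0.29 on the log2 scale, against 0.11 to 0.19 in the other libraries. It was the lowest library in 30 members and the highest in 29, so it was spread to both sides rather than shifted. The knockout libraries were shifted instead, in both directions. Library 3 was the highest of the 6 in 42 members and the lowest in 1, with a mean deviation of 0.12. Library 1 was the lowest in 22 and the highest in 1 (mean -0.098), and library 2 the lowest in 22 and the highest in 2 (mean -0.061).

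**Figure D4:**
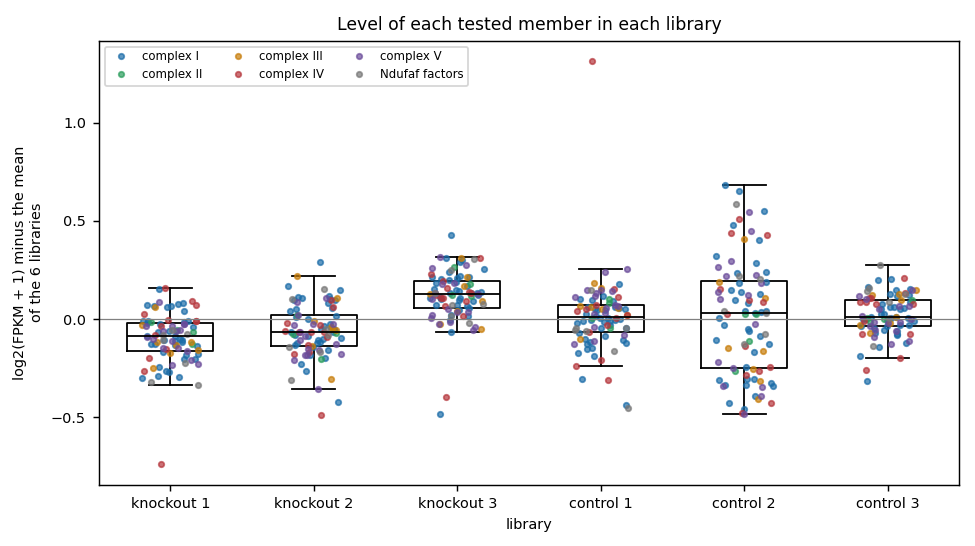
Log2(FPKM + 1) of each tested member in each library minus its mean over the 6 libraries (points coloured by complex; boxes give median and quartiles, whiskers reach to 1.5 times the box). Control library 2 has the widest box, knockout library 3 lies above 0 with a mean of 0.12 and knockout libraries 1 and 2 below it with means of -0.098 and -0.061, and the point above 1 in control library 1 is Cox6a2.

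The deviation of control library 2 ran with the base composition of the transcripts. Its difference from the mean of control libraries 1 and 3 had a Spearman correlation of -0.51 with transcript GC content over the 86 members with a GC value, and of -0.59 over 8935 genes, as a description across genes of 1 library. Among the 29 members with the lowest GC (42.0% to 49.4%) the median difference was 0.14 and 6 of 29 members were lower in control library 2. Among the 29 with the highest GC (53.9% to 61.1%) it was -0.23 and 21 of 29 were lower. The log2 fold change itself correlated with GC at 0.40 over the members and at 0.16 over all genes, and its median was -0.093 over the 29 low-GC and 0.061 over the 29 high-GC members. With length it correlated at -0.12 over the members.

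Leaving out control library 2 brought the members still closer to 0. Their median absolute log2 fold change became 0.063, and the intervals of 78 of 88 members (88.6%) stayed inside 1.5-fold, against 34.9% of all genes in the same fit. No member passed the test in that fit, in which 8 genes in all did. With the GC trend of each library removed, no member passed and 782 genes did.

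**Figure D5:**
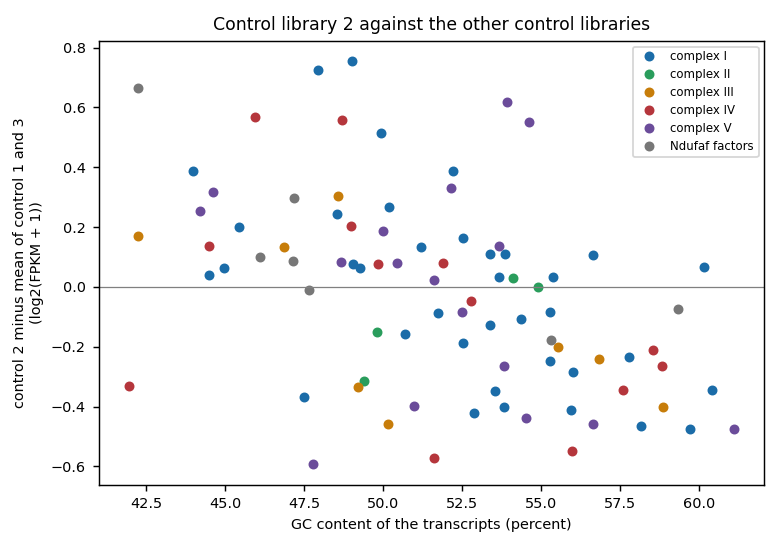
Difference of control library 2 from the mean of control libraries 1 and 3 (log2(FPKM + 1), vertical) against transcript GC content (percent, horizontal) for the 86 tested members with a GC value, coloured by complex. Members under 49.4% GC mostly lie above 0 and those over 53.9% mostly below it.

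The other partners of the chain were compared in the same fit. The 13 subunits encoded by mtDNA all had a negative log2 fold change, with a median of -0.35, and none passed the test (1 had an unadjusted p under 0.05). Relative to the median of all genes, 11 of the 13 lay lower. After rescaling, and with voom, 10 of the 13 were negative with a median of -0.20, and without control library 3 it was 11 of the 13. COX1, the catalytic subunit of complex IV, was at 3838, 4176 and 4531 FPKM in knockout and 4768, 4490.4 and 4346 FPKM in control libraries. CYTB, the cytochrome b of complex III, was at 1914, 1908 and 2050.2 FPKM against 1968, 1928 and 2275 FPKM. In both the groups overlapped. All knockout libraries were below all controls in 2 of the 13, ND5 and COX2, which held for 23.0% of all tested genes.

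Control library 2 was the highest of the 6 in 8 of these 13 genes, whose GC content is 31.9% to 41.1%. ND6, which has the most negative value (-0.75, adjusted p = 0.386 by limma), was at 13.8, 25.5 and 37.9 FPKM in knockout and 31.7, 88.2 and 23.8 FPKM in control libraries. Without control library 2 the median of the 13 was -0.15, beside -0.10 for all genes. Once the GC trend was removed it was -0.026, with 7 of 13 negative. Since mtDNA has copies in the nuclear genome, how these reads were assigned bears on the absolute levels, and COX2, COX3, ATP6, ATP8, ND3, ND4L and ND6 were listed at means of only 7.32 to 56.1 FPKM.

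Among 8 carriers and enzymes outside the naming rule, including cytochrome c (Cycs) and cytochrome c1 (Cyc1), none passed the test, and 3 were positive and 5 negative (median -0.098). Of 36 assembly factors of other names, none passed, with 13 positive and 23 negative (median -0.062). The same held for the 10 tested genes of ubiquinone synthesis (6 positive, 4 negative, median 0.030), the 77 mitochondrial ribosomal proteins (24 positive, 53 negative, median -0.073) and the 23 import proteins of the Tomm and Timm families (7 positive, 16 negative, median -0.10). All of these medians lie above -0.11, the median of all tested genes.

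Regulators of respiratory genes also gave no call. Of 13 tested, 2 were positive and 11 negative (median -0.11), and in 4 all knockout libraries were below all controls, which held for 23.0% of all tested genes. At an unadjusted p under 0.05 by limma there were 2 of the 13, against 27.6% of all tested genes. These were Yy1 and Gabpb2, named after their values were seen. Nrf1, which encodes the factor whose motif is shown above, was at 1.83, 1.53 and 1.76 FPKM in knockout and 1.52, 1.87 and 2.07 FPKM in control libraries. Yy1, which encodes YY1, was at 8.95, 8.90 and 9.94 FPKM against 10.1, 15.8 and 13.5 FPKM (log2 fold change -0.44, SE 0.17, limma adjusted p = 0.156). Gabpb2, which encodes a subunit of GABP, was at 2.58, 2.32 and 3.17 FPKM against 3.40, 3.96 and 4.31 FPKM (log2 fold change -0.41, SE 0.14, limma adjusted p = 0.123). In both, the knockout libraries lay under the controls, and neither difference passed the test. The other GABP subunits, Gabpa and Gabpb1, had overlapping groups, with log2 fold changes of -0.17 and -0.021. The 11 members with an NRF1 match had a median log2 difference of 0.072 and those without one of -0.032. The medians with and without the motif were 0.068 and -0.030 for ETS (19 genes with it), -0.085 and -0.0081 for YY1 (11 genes) and 0.18 and -0.030 for TATA (6 genes), all given as descriptions. Ppargc1a, the coactivator of mitochondrial biogenesis in muscle and brown fat, did not pass 0.0107 FPKM in any library.

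Of 5 tested genes that tie inflammation to respiration, none passed. AA467197, the mouse counterpart of a protein known to take the place of Ndufa4 in complex IV during inflammation, was at 442, 455 and 374 FPKM in knockout and 741, 610.4 and 154 FPKM in control libraries. The controls held both the highest and the lowest library. Ndufa4 itself was at 97.2, 95.2 and 109 FPKM against 80.3, 106 and 116 FPKM, a log2 fold change of 0.010. Ucp2, an uncoupling protein family member of the inner membrane, was higher in every knockout library, at 128, 143 and 184 FPKM against 105, 83.5 and 113 FPKM (log2 fold change 0.58, SE 0.18, limma adjusted p = 0.0979). Hif1a, the hypoxia-inducible factor, was at 66.6, 60.2 and 80.4 FPKM against 67.1, 113 and 99.1 FPKM, with overlapping groups.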

How the data were processed

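The authors deposited 1 table of the series, with FPKM per library. Its signal columns hold the authors' group means of size-factor-scaled counts, named after DESeq2. The deposited fold change (a ratio), its log2 value and the p-value and q-value columns are the authors' own comparison and were not used. The submitters' processing notes name mm9; aligner and counter are not given in the sources used here, and no coordinates were read from the table. Whole reads and gene lengths were recovered from FPKM and group means (all values whole within 0.1 reads). No per-sample column was left out (0 unused).

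The 9030 genes reaching a mean of 1 FPKM in one group were tested on log2(FPKM + 1) in R 4.3.3 with limma 3.58.1 (lmFit; eBayes, trend), with Benjamini-Hochberg adjustment and a threshold of 0.05. The scale understates changes of low genes. Adjusted p-values are from limma. Two-sided exact permutation of 3 against 3 libraries cannot go below 0.1. The table lists only genes with a mean above 1 in the authors' base mean. GC content came from GENCODE M21 transcripts. The script was tested on simulated data.

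Members, lists and tests were chosen with earlier results of these data known. Named were members past the threshold, in each complex the most abundant and those with the largest and smallest log2 fold change, 10 core subunits, restricted isoforms, and, of other lists, those past the threshold, besides Timd4 and Lyz2, and any other gene was picked once its values were known. Deviations of same-numbered libraries from their group means correlated at 0.109, 0.109 and 0.304, each above 0.1. The replicate numbers were therefore taken to pair the libraries, but only in the replicate block. The main fit did not use the pairing, so its p-values are unpaired. The pairing rests on the check alone, and knockout library 2 correlated more with control library 1 (0.291) than with control library 2. The alternatives were a pseudocount of 0.1, no filter, at least 10 reads in every library, the replicate block, each library left out, rescaling by the median of ratios and, chosen after seeing the data, limma voom on recovered reads and removal of the GC trend (loess, span 0.5) of each library.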

Additional observations from a re-analysis of the deposited data

How the results depend on the processing

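No member passed the threshold in any alternative except Cox6a2, which was lower once control library 3 was dropped (-1.45 on the log2 scale, limma adjusted p = 0.0123), so that leaving out 1 library gave 0 to 1 members. The replicate block changed no call of a member. Counting subunits alone, without the Ndufaf factors, also gave 0 of 81. Over all genes, 232 passed as higher in the knockout, against 141 without a filter, 352 with the replicate block, 374 with the GC trend removed and 500 with both. Leaving out 1 library gave 1 to 529 higher and 7 to 804 lower, and the total of 660 became 30 without knockout library 1, 63 without knockout library 2, 8 without control library 2 and 1333 without control library 3. Rescaling moved the split to 342 higher and 320 lower, from 232 and 428, and voom to 298 and 291. The planned count model on recovered reads was not run, and voom on the same reads took its place.

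Medians by complex moved with the scale. For complexes I, II, III, IV and V and the Ndufaf factors they were 0.12, 0.15, 0.14, 0.18, 0.053 and 0.045 after rescaling, and 0.13, 0.15, 0.14, 0.16, 0.053 and 0.054 with voom. With the GC trend removed, with or without the replicate block, they were 0.085, 0.081, 0.094, 0.11, 0.0093 and 0.040 in the same order. The complex IV median ran from -0.086 to 0.12 as single libraries were left out. Of 294 alternative values of the 21 named members, 256 kept direction and call, 1 passed the threshold anew (Cox6a2), and 37 values of 11 members changed sign, none of them past the threshold. Rescaling gave Sdhc 0.14, Sdhb 0.093, Ndufs1 0.0076, Uqcrc1 0.12, Cox5a 0.11 and Atp5a1 0.085, and voom gave Sdhc 0.14, Sdhb 0.094, Ndufs1 0.0085, Uqcrc1 0.12, Cox5a 0.11 and Atp5a1 0.086. With the GC trend removed, alone or with the replicate block, the values were Sdhc 0.047, Uqcrb 0.036, Uqcrc1 0.015, Cox5a 0.072 and Atp5a1 0.0093.

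With single libraries left out, log2 fold changes ran for Sdhc from -0.071 to 0.023, Cox5a from -0.086 to 0.036, Sdhb from -0.15 to 0.037, Uqcrc1 from -0.10 to 0.041, Sdhd from -0.0017 to 0.19, Sdha from -0.037 to 0.065, Atp5l from -0.022 to 0.28 and Cox4i1 from -0.043 to 0.14. Depth limits the rarest members: Cox6b2 had 0 to 6 reads in a library, Ndufb4c 2 to 10 and Cox7a1 4 to 23, and of the tested members Ndufb4b had 9 to 34 and Ndufs6b 32 to 74. How far depth and how far the spread between libraries sets the 22 intervals that reach beyond 1.5-fold was not tested.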
